A study of Mus musculus with 16 samples.

Results

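The genes described here were 10 targets and feedback inhibitors of fibroblast growth factor (FGF) signalling through the kinase ERK. They were the phosphatase genes Dusp4 and Dusp6, the Sprouty genes Spry1, Spry2 and Spry4, the Spred genes Spred1 and Spred2, and the ETS transcription factor genes Etv1, Etv4 and Etv5. They were chosen by symbol, with no measured value in the rule, and made up 10 of the 20921 genes with a symbol that could be tested. The array carried 14 probes for them. The symbol stood in the array file for 4 of these, and the other 10 were named through a RefSeq accession. Of the 14, 11 were bright enough to be tested, one for each gene and a second one for Dusp4, whereas 2 further probes of Etv1 and 1 of Spred2 were not well above background on any array.

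When an FGF binds its receptor, the signal passes through Ras, Raf and MEK to ERK, which phosphorylates ETS factors and thereby switches on a set of early target genes. Several of these targets feed back on the pathway. Dusp phosphatases remove the activating phosphates from ERK, whereas Sprouty and Spred proteins act further upstream, around Ras and Raf. Etv1, Etv4 and Etv5 form the PEA3 group of ETS factors, which are transcribed in response to FGF and activate FGF target genes. In the embryo, FGF signalling is needed when cells leave the pluripotent state and form mesoderm, the layer from which heart cells arise.

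Expression was measured in mESCs of the single line CGR8-Myh6-GFP, in which the promoter of a cardiac myosin gene drives a fluorescent reporter, during differentiation towards cardiomyocytes. On day 4 all cultures received one of 3 additions, namely DMSO as the vehicle control, 0.25 mg/ml WS1442, which is a hawthorn extract, or 0.1 mg/ml MeOH eluate, a fraction of WS1442 rich in procyanidins. Collection followed at 6 h or 24 h. This gave 6 groups on 16 arrays, with 2 samples in each DMSO group and 3 in each treated group. The labels do not say whether replicates came from separate cultures, so the p-values measure the spread between these samples, which may be technical. The 2 treatments differed in dose, and both were compared with the same DMSO samples at each time point.

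Values are log2 signals, that is log2 of the spot intensity in arbitrary units after quantile normalization over the 16 arrays. A gene was called higher or lower at a Benjamini-Hochberg adjusted p under 0.05 from limma, with p-values adjusted over all tested probes. The brightest probe of each member was well above background on 16 of 16 arrays, and no spot was saturated. RNA integrity numbers lay between 8.6 and 10, the lowest being that of WS1442 24 h replicate 2, and between 55.1% and 63.0% of gene spots per array were well above background. Incorporation of the Cy3 label, in pmol per µg, separated the groups of 24 h. It was 25.8 to 26.1 with DMSO, 31.8 to 32.8 with WS1442 and 27.1 to 30.3 with MeOH eluate. At 6 h it was 23.5 to 26.4, 26.5 to 27.6 and 24.7 to 29.5 in this order. The part of labelling in the results was not tested. The DMSO 24 h samples stood farthest apart of all replicate pairs, with an SD of 0.53 for the difference of their log2 signals, against 0.29 to 0.48 in the other groups. All arrays of 6 h lay on one slide and all arrays of 24 h on another. On both slides DMSO lay in column 1, WS1442 in columns 2 and 3 and MeOH eluate in columns 3 and 4, so for every comparison with DMSO treatment and array column cannot be told apart. RNA came from whole cultures, in which fewer cells of a type and less RNA per cell cannot be told apart.

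Promoter sequences from RefSeq (build GRCm38.p6) were at hand for 9 start sites of 7 of the 10 genes, each as the 250 bases before the start. They are shown because ETS factors bind the letters GGAA and because 6 of the 10 genes fell with MeOH eluate at 6 h. The ETS core CGGAAG, searched on both strands, occurred in 3 of the 9 windows, those of Dusp6, Spred1 and Spred2, against 13.59% of all 32851 promoters. In the sequences that follow, written 5′ to 3′ on the strand of the gene, capitals mark this core or its reverse complement CTTCCG. The Dusp6 window (chr10:99262981-99263230, plus strand) holds it 62 bases before the start, that of Spred2 (chr11:19924192-19924441, plus strand) 43 bases and that of Spred1 (chr2:117120821-117121070, plus strand) 17 bases before it. Etv5 (chr16:22439571-22439820, minus strand) is given beside them as a gene that fell with MeOH eluate at 6 h, as did Dusp6 and Spred1 but not Spred2, and neither of its 2 windows holds these letters.
Dusp6: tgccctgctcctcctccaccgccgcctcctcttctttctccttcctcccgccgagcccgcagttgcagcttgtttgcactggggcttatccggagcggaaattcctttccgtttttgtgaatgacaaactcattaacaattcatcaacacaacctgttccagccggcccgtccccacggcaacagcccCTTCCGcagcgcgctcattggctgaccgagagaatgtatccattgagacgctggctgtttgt
Spred1: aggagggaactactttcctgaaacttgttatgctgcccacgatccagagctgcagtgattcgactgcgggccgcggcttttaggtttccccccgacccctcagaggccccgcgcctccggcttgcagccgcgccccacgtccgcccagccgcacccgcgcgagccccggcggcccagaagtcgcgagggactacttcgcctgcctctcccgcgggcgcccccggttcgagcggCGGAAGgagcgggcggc
Spred2: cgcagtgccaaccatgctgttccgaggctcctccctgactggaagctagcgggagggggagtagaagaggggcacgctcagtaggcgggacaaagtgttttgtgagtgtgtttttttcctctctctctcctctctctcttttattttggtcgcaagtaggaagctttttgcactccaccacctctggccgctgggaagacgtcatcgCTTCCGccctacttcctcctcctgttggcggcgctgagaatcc
Etv5: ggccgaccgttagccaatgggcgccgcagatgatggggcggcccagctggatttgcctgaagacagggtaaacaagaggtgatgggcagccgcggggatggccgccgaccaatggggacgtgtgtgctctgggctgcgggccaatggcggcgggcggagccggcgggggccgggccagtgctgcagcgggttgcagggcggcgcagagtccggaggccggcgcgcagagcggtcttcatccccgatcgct
The longer ETS motif CCGGAAG, which contains the core, occurred in 0 of the 9 windows and in 6.907% of all promoters, and the AP-1 motif TGANTCA in 0 of 9 and 6.749%. The CRE core TGACG lay in 1 window, that of Spred2, against 17.77% of all promoters. A match describes letters and not a bound site, and its absence says only that the letters are not in this window.

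After 6 h of MeOH eluate, 6 of the 10 genes had fallen, namely Dusp6, Etv1, Etv5, Spry4, Etv4 and Spred1. Only Dusp6 fell by more than 2-fold among them, while Dusp4, Spred2, Spry1 and Spry2 were not called. Over all tested genes, 8.45% were lower and 10.3% higher in this comparison. The median log2 fold change was -0.51 over the 10 genes and 0.01 over all genes. With WS1442 at 6 h the changes were smaller, and 3 of the 10 genes, Dusp6, Spred2 and Etv4, were called lower, beside 1.36% of all genes lower and 5.22% higher. The medians were -0.22 over the members and 0.02 over all genes.

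At 24 h calls against DMSO went in both directions. WS1442 left 5 of the 10 genes higher than DMSO (Dusp4, Spry1, Etv4, Spred2 and Etv5) and 3 lower (Spry2, Spred1 and Dusp6). Over all genes, 14.7% were higher and 11.8% lower, so that 55.5% of all calls were upwards, a share that became 43.9% when each array was scaled to its 75th percentile instead. With MeOH eluate only Dusp4 was higher among the members, while 6 were lower, namely Etv4, Spry4, Dusp6, Spry2, Spred1 and Etv5. Of all genes, 11.8% were higher and 8.67% lower. The members' median was 0.19 with WS1442 and -0.33 with MeOH eluate, against 0.05 and 0.02 over all genes. No member changed by more than 2-fold against DMSO at 24 h.

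**Figure D1:**
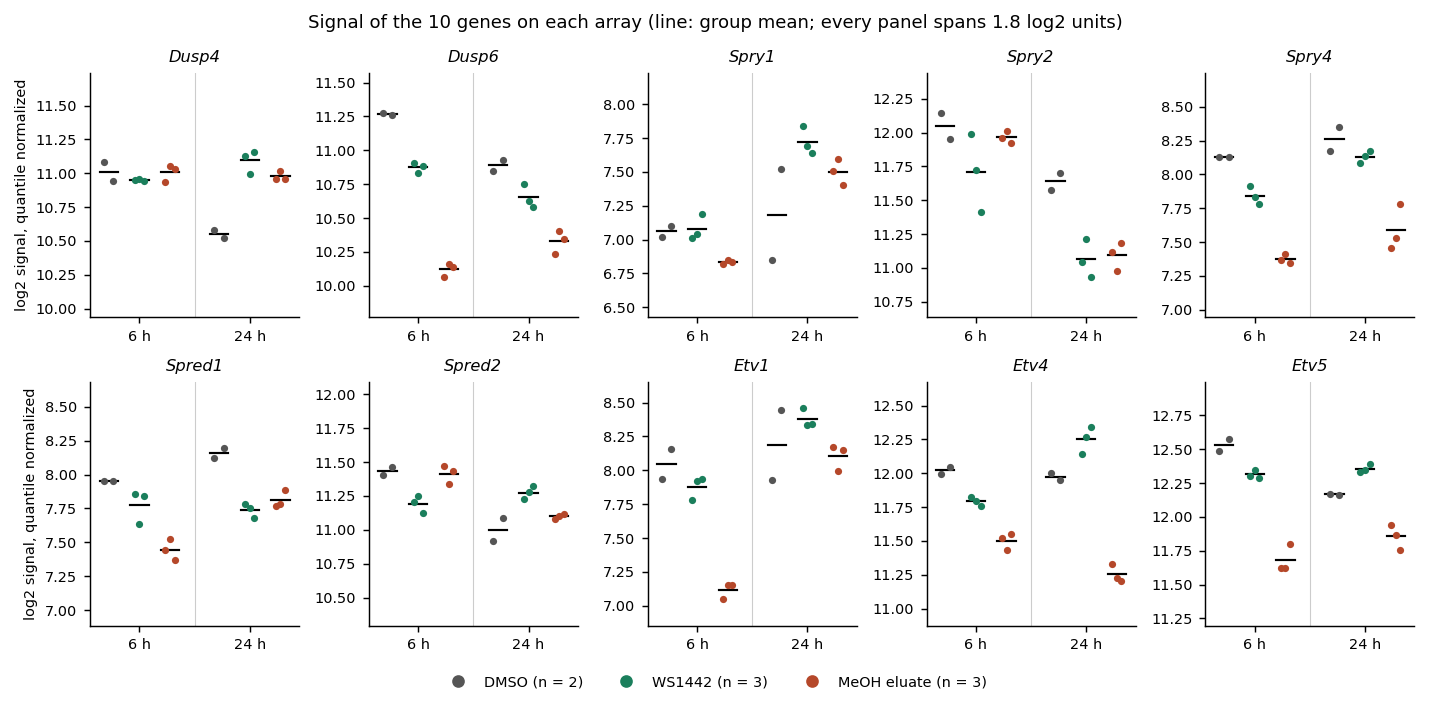
Log2 signal (y axis, quantile normalized) of the brightest probe of each of the 10 genes on every array, for the DMSO (grey), WS1442 (green) and MeOH eluate (red) samples at 6 h and 24 h (x axis), with one point per array and a line at each group mean. At 6 h the MeOH eluate samples of Dusp6 lie between 10.06 and 10.16, below all WS1442 and DMSO samples, and at 24 h the Etv4 samples form an upper WS1442 group (12.14 to 12.34) and a lower MeOH eluate group (11.20 to 11.33) around DMSO.

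Dusp6 encodes a cytoplasmic phosphatase specific for ERK and is a widely used readout of FGF signalling. At 6 h its log2 signals were 11.27 and 11.26 with DMSO, 10.91, 10.83 and 10.89 with WS1442, and 10.06, 10.16 and 10.14 with MeOH eluate. At 24 h they were 10.85 and 10.93 with DMSO, 10.75, 10.62 and 10.58 with WS1442, and 10.24, 10.41 and 10.35 with MeOH eluate. At both times the order was DMSO, WS1442, MeOH eluate from high to low, and no group overlapped its neighbour. The fall with MeOH eluate was -1.15 ± 0.06 (log2 fold change ± SE) at 6 h, or 0.45-fold, with an adjusted p of 3.94e-08, and -0.56 ± 0.06 at 24 h (adjusted p = 2.12e-05). WS1442 lowered Dusp6 by less, with -0.39 ± 0.06 at 6 h (adjusted p = 0.00342) and -0.24 ± 0.06 at 24 h (adjusted p = 0.0138). Without DMSO 6 h replicate 1 the WS1442 value at 6 h was -0.39 with an adjusted p of 0.051. At 24 h the WS1442 call was lost without DMSO 24 h replicate 2 (-0.19, adjusted p = 0.0993) and without WS1442 24 h replicate 3 (-0.20, adjusted p = 0.0579).

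Dusp4 encodes a nuclear phosphatase of the same family, and it was called at 24 h only, where it was higher than DMSO with both treatments. Its brightest probe, made to a cDNA clone that the array file assigns to Dusp4 at chr8:35884806-35884865 (build mm9), gave 11.08 and 10.94 with DMSO at 6 h, 10.95, 10.96 and 10.94 with WS1442, and 10.93, 11.06 and 11.03 with MeOH eluate, so that the groups overlapped. At 24 h it gave 10.58 and 10.52 with DMSO, 11.13, 11.00 and 11.16 with WS1442, and 10.96, 11.02 and 10.96 with MeOH eluate. All treated samples of 24 h lay above both DMSO samples. From 6 h to 24 h the mean of this probe went from 11.01 to 10.55 with DMSO. It went from 10.95 to 11.10 with WS1442 and from 11.01 to 10.98 with MeOH eluate. The changes at 6 h were -0.06 ± 0.06 with WS1442 and -0.0049 ± 0.0592 with MeOH eluate, neither called (adjusted p = 0.636 and 0.970). At 24 h they were 0.54 ± 0.06 and 0.43 ± 0.06 (adjusted p = 3.25e-05 and 0.000137). The second Dusp4 probe, which carries the RefSeq transcript, moved less and was not called at 24 h, with 0.17 for WS1442 (adjusted p = 0.126) and 0.23 for MeOH eluate (adjusted p = 0.0519).

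The Sprouty genes, whose products are inducible inhibitors of receptor tyrosine kinase signalling, each showed a different pattern. Spry4 fell with MeOH eluate at both times. Its signals at 6 h were 8.13 and 8.13 with DMSO, 7.92, 7.83 and 7.78 with WS1442, and 7.37, 7.41 and 7.35 with MeOH eluate. At 24 h they were 8.17 and 8.35, 8.08, 8.14 and 8.18, and 7.46, 7.53 and 7.78 in the same order. The MeOH eluate samples were the lowest at both times, while WS1442 lay under DMSO at 6 h and overlapped it at 24 h. Spry4 fell with MeOH eluate by 0.75 ± 0.09 at 6 h (adjusted p = 7.99e-05) and by 0.67 ± 0.09 at 24 h (adjusted p = 0.000137). With WS1442 it gave -0.29 ± 0.09 at 6 h (adjusted p = 0.0956) and -0.13 ± 0.09 at 24 h (adjusted p = 0.346), and neither was called. The 6 h value stood at an adjusted p of 0.0498 without MeOH eluate 24 h replicate 3.

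Spry2 was called at 24 h only. At 6 h it measured 12.14 and 11.95 with DMSO, 11.99, 11.72 and 11.42 with WS1442 and 11.96, 12.01 and 11.92 with MeOH eluate, and the groups overlapped. After 24 h the values were 11.58 and 11.70 with DMSO, 11.04, 11.21 and 10.93 with WS1442, and 11.11, 10.98 and 11.19 with MeOH eluate. Every treated sample of 24 h was thus below both DMSO samples. Spry2 fell at 24 h with both treatments, with -0.58 ± 0.13 for WS1442 (adjusted p = 0.00432) and -0.55 ± 0.13 for MeOH eluate (adjusted p = 0.0070). Without DMSO 24 h replicate 2 the MeOH eluate value was -0.48 with an adjusted p of 0.0553. The WS1442 samples of 6 h spread widely, and without WS1442 6 h replicate 1 the change of -0.34 (adjusted p = 0.151) became -0.48 (adjusted p = 0.0201).

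Spry1 was the one Sprouty gene with a rise. It measured 7.02 and 7.10 with DMSO at 6 h, 7.01, 7.04 and 7.19 with WS1442, and 6.82, 6.85 and 6.83 with MeOH eluate. At 24 h the DMSO samples gave 6.85 and 7.52, the WS1442 samples 7.84, 7.69 and 7.64, and the MeOH eluate samples 7.51, 7.59 and 7.40. The DMSO samples of 24 h lay far apart, and the higher one fell within the range of MeOH eluate. Spry1 rose with WS1442 at 24 h by 0.54 ± 0.14 (adjusted p = 0.0141), a call that rested on the lower DMSO sample, since without DMSO 24 h replicate 1 it was 0.20 (adjusted p = 0.313). With MeOH eluate the value was 0.32 ± 0.14 (adjusted p = 0.1598), and without DMSO 24 h replicate 2 it became 0.66 (adjusted p = 0.00152). At 6 h neither treatment gave a call, with 0.02 for WS1442 and -0.23 for MeOH eluate.

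The Spred proteins, which recruit the Ras inhibitor neurofibromin to the membrane, also differed from each other. Spred1 measured 7.95 and 7.95 with DMSO at 6 h, 7.86, 7.63 and 7.84 with WS1442, and 7.44, 7.53 and 7.37 with MeOH eluate. At 24 h it measured 8.13 and 8.20, 7.79, 7.75 and 7.68, and 7.77, 7.78 and 7.88 in that order. Thus all treated samples lay below DMSO at both times, with MeOH eluate lowest at 6 h and the treatments overlapping at 24 h. Spred1 fell with MeOH eluate by 0.50 ± 0.08 at 6 h (adjusted p = 0.000977) and by 0.35 ± 0.08 at 24 h (adjusted p = 0.00864), and with WS1442 by 0.42 ± 0.08 at 24 h (adjusted p = 0.00219). The WS1442 value at 6 h was -0.17 ± 0.08 (adjusted p = 0.287). Without DMSO 24 h replicate 2 the MeOH eluate value at 24 h was -0.31 (adjusted p = 0.0629).

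Against the DMSO samples of the same time, Spred2 differed with WS1442 in opposite directions at the 2 time points. Its signals at 6 h were 11.41 and 11.47 with DMSO, 11.21, 11.25 and 11.13 with WS1442, and 11.47, 11.34 and 11.44 with MeOH eluate. At 24 h they were 10.92 and 11.08, 11.22, 11.28 and 11.32, and 11.08, 11.11 and 11.12. WS1442 lay below DMSO at 6 h and above it at 24 h, whereas MeOH eluate overlapped DMSO both times. Spred2 fell with WS1442 at 6 h by 0.24 ± 0.06 (adjusted p = 0.0317) and rose at 24 h by 0.27 ± 0.06 (adjusted p = 0.00386), while MeOH eluate gave -0.02 (adjusted p = 0.850) and 0.10 (adjusted p = 0.3002). The call at 6 h was lost without DMSO 6 h replicate 1 (-0.27, adjusted p = 0.1498), DMSO 6 h replicate 2 (-0.21, adjusted p = 0.161) or WS1442 6 h replicate 3 (-0.21, adjusted p = 0.119), and that at 24 h without DMSO 24 h replicate 1 (0.19, adjusted p = 0.0918).

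Among the ETS factors, Etv4 moved in opposite directions with the 2 treatments at 24 h. Its signals at 6 h were 11.99 and 12.05 with DMSO, 11.83, 11.80 and 11.76 with WS1442, and 11.52, 11.43 and 11.55 with MeOH eluate. At 24 h they were 12.00 and 11.95 with DMSO, 12.14, 12.27 and 12.34 with WS1442, and 11.33, 11.22 and 11.20 with MeOH eluate. The groups did not overlap at either time, and WS1442 changed from below DMSO to above it. Etv4 fell with MeOH eluate by 0.52 ± 0.06 at 6 h (adjusted p = 4.42e-05) and by 0.72 ± 0.06 at 24 h (adjusted p = 1.32e-06). With WS1442 it fell by 0.23 ± 0.06 at 6 h (adjusted p = 0.0443) and rose by 0.27 ± 0.06 at 24 h (adjusted p = 0.00418). The small fall with WS1442 at 6 h lay at the threshold, and 5 of 12 processing alternatives besides a t-test kept the call. It was lost with scaling to the 75th percentile, with normexp background correction, without a filter on dim probes and without an intensity trend in the prior. It was also lost with a replicate block, with slide row as a block and with a fit within the time point. Leaving out any one of 10 samples ended that call, those of 6 h being DMSO replicates 1 and 2 (adjusted p = 0.205 and 0.195), WS1442 replicates 2 and 3 (0.0861 and 0.141) and MeOH eluate replicate 1 (0.0587), and those of 24 h being DMSO replicates 1 and 2 (0.0535 and 0.0533), WS1442 replicate 2 (0.0593) and MeOH eluate replicates 2 and 3 (0.0566 and 0.0501), while the log2 fold change stayed between -0.25 and -0.20.

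Etv5 fell with MeOH eluate at both times, by more at 6 h. At 6 h it measured 12.48 and 12.57 with DMSO, 12.31, 12.35 and 12.29 with WS1442, and 11.62, 11.63 and 11.80 with MeOH eluate. At 24 h it measured 12.17 and 12.17, 12.33, 12.35 and 12.39, and 11.94, 11.87 and 11.76 in the same order. MeOH eluate was the lowest group at both times, and WS1442 lay under DMSO at 6 h and over it at 24 h. The changes with MeOH eluate were -0.85 ± 0.06 at 6 h (adjusted p = 5.58e-07) and -0.31 ± 0.06 at 24 h (adjusted p = 0.00194). With WS1442 Etv5 gave -0.21 ± 0.06 at 6 h, which missed the threshold (adjusted p = 0.0570), and 0.19 ± 0.06 at 24 h (adjusted p = 0.0362). The WS1442 call at 24 h was lost when any single DMSO or WS1442 sample of 24 h was left out (0.17 to 0.20, adjusted p between 0.0516 and 0.146), and it gave 0.06 (adjusted p = 0.563) with scaling to the 75th percentile. At 6 h its adjusted p was 0.0307 without MeOH eluate 6 h replicate 3 and 0.0432 without MeOH eluate 24 h replicate 3.

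Etv1, against DMSO, was called with MeOH eluate at 6 h only. Its signals at 6 h were 7.94 and 8.16 with DMSO, 7.78, 7.92 and 7.93 with WS1442, and 7.05, 7.15 and 7.16 with MeOH eluate. At 24 h they were 7.93 and 8.45 with DMSO, 8.46, 8.33 and 8.35 with WS1442, and 8.17, 8.00 and 8.15 with MeOH eluate. The MeOH eluate samples of 6 h stood clear below all others, whereas at 24 h the DMSO samples were apart and overlapped both treatments. The fall at 6 h was -0.93 ± 0.12, or 0.52-fold (adjusted p = 0.000156), and the value at 24 h was -0.08 ± 0.12 (adjusted p = 0.748). For WS1442 it was -0.17 ± 0.12 at 6 h (adjusted p = 0.525) and 0.19 ± 0.12 at 24 h (adjusted p = 0.296), the latter becoming 0.45 (adjusted p = 0.0123) without DMSO 24 h replicate 2.

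**Figure D2:**
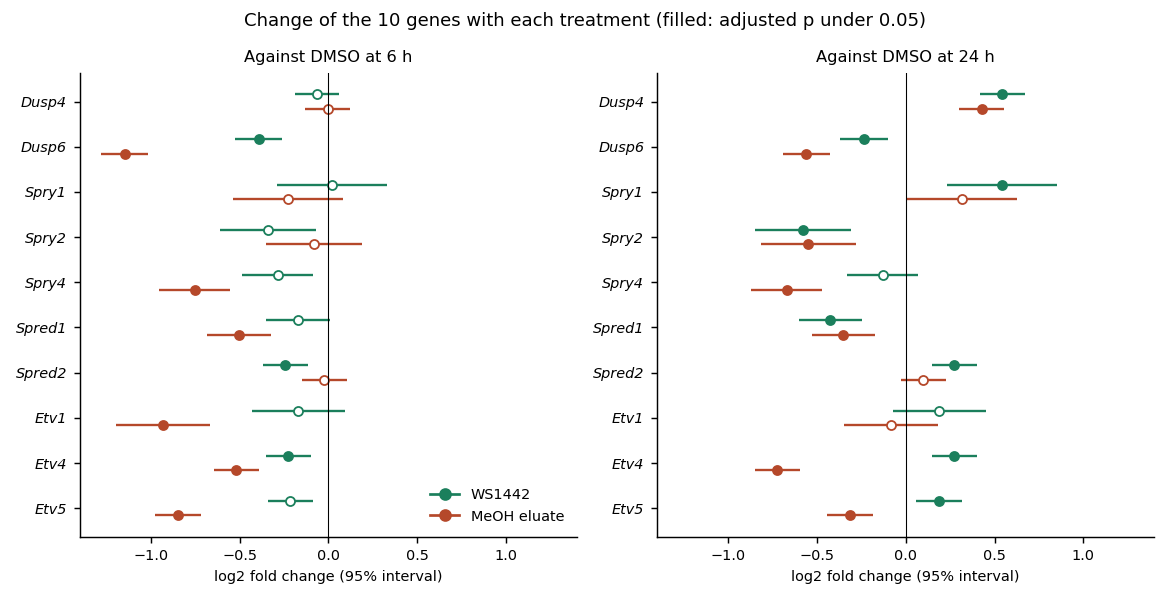
Log2 fold change of each gene against DMSO (x axis) with its 95% confidence interval from limma, for WS1442 (green) and MeOH eluate (red), at 6 h on the left and at 24 h on the right. Filled points passed an adjusted p of 0.05. At 6 h the red points reach from -1.15 (Dusp6) to -0.0049 (Dusp4), and at 24 h the green point of Etv4 lies at 0.27 while the red one lies at -0.72.

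The treatments were then compared with each other at each time, with the doses as given above, which were not matched. At 6 h the MeOH eluate samples were lower than the WS1442 samples in 6 of the 10 genes and higher in 1, beside 8.84% of all genes lower and 5.01% higher. Upward calls were 36.2% of all calls in this comparison and 17.1% with scaling to the 75th percentile. The 6 lower genes were Etv1 (-0.76 ± 0.11, adjusted p = 0.000903), Dusp6 (-0.75 ± 0.06, adjusted p = 3.64e-06), Etv5 (-0.63 ± 0.05, adjusted p = 1.31e-05), Spry4 (-0.47 ± 0.08, adjusted p = 0.00363), Spred1 (-0.33 ± 0.07, adjusted p = 0.0132) and Etv4 (-0.29 ± 0.05, adjusted p = 0.00438). Spred2 was the gene with the higher signal, at 0.22 ± 0.05 (adjusted p = 0.01755). For Dusp4, Spry1 and Spry2 the 95% intervals of the difference were -0.05 to 0.17, -0.53 to 0.03 and 0.01 to 0.50, and none passed the adjusted threshold.

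At 24 h the difference was largest, among the 10 genes, in Etv4, at -0.997 ± 0.054 on the log2 scale (adjusted p = 2.97e-07), which is a 0.50-fold signal with MeOH eluate. A further 4 genes were also lower with MeOH eluate, namely Spry4 (-0.54 ± 0.08, adjusted p = 0.000909), Etv5 (-0.50 ± 0.05, adjusted p = 9.60e-05), Dusp6 (-0.32 ± 0.06, adjusted p = 0.00192) and Spred2 (-0.18 ± 0.05, adjusted p = 0.0404). That made 5 of the 10 genes, beside 7.95% of all genes lower and 8.62% higher. Dusp4 (interval -0.23 to -0.0039), Spry1 (-0.50 to 0.05), Spry2 (-0.21 to 0.27), Spred1 (-0.09 to 0.23) and Etv1 (-0.51 to -0.04) were not called.

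Some of these differences rested on single samples. At 6 h the Spred1 difference was lost without WS1442 6 h replicate 3 (-0.30, adjusted p = 0.0594) or MeOH eluate 6 h replicate 3 (-0.29, adjusted p = 0.0565). That of Spred2 was lost at 6 h without WS1442 6 h replicate 3 (0.19, adjusted p = 0.0807), MeOH eluate 6 h replicate 1 (0.19, adjusted p = 0.0762) or MeOH eluate 6 h replicate 3 (0.21, adjusted p = 0.0626), and it was 0.09 (adjusted p = 0.244) with scaling to the 75th percentile. At 24 h that of Spred2 was lost without WS1442 24 h replicate 2 or 3 or any MeOH eluate 24 h sample (-0.18 to -0.15, adjusted p between 0.0875 and 0.162), and also with normexp background correction (-0.11, adjusted p = 0.232), without a filter on dim probes, without an intensity trend in the prior and with a fit within the time point (adjusted p between 0.0544 and 0.0866). Spry2 at 6 h became a call without WS1442 6 h replicate 1 (0.40, adjusted p = 0.0165), and Etv1 at 24 h without DMSO 24 h replicate 1 (adjusted p = 0.0382) or 2 (adjusted p = 0.0386), with -0.27 in both. Dusp6, Spry4, Etv4 and Etv5 kept their call at both times whichever sample was left out, and so did Etv1 at 6 h.

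**Figure D3:**
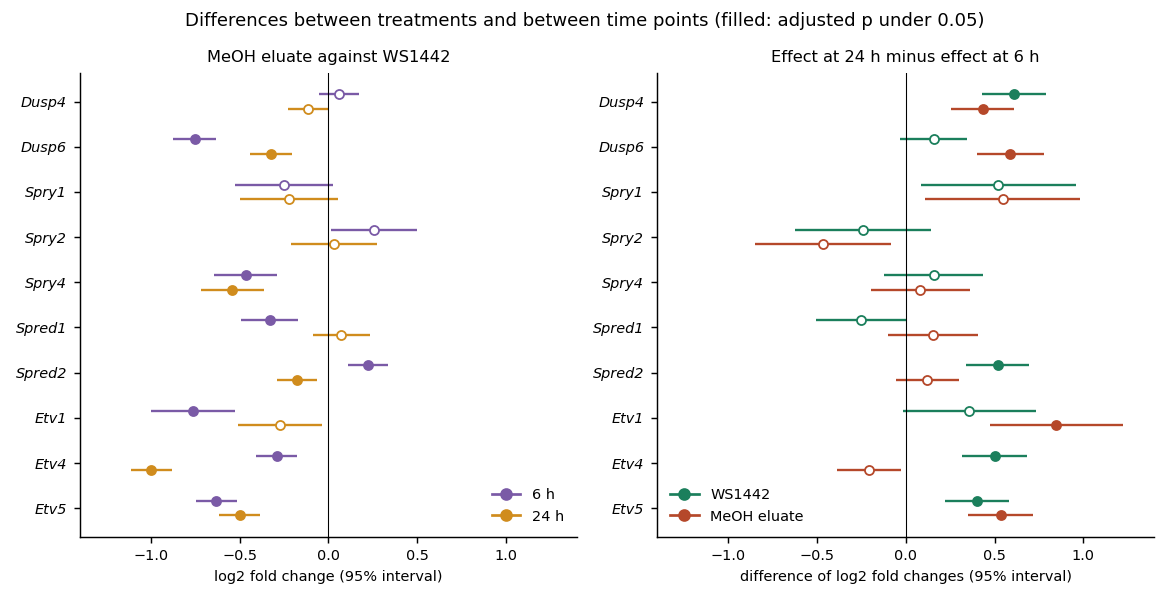
Left, log2 fold change of MeOH eluate against WS1442 (x axis, with 95% interval) for each gene at 6 h (purple) and 24 h (orange). Right, the log2 fold change against DMSO at 24 h minus that at 6 h for WS1442 (green) and MeOH eluate (red). Filled points passed an adjusted p of 0.05. Etv4 lies at -0.29 and -0.997 on the left, and on the right the filled points lie between 0.40 and 0.85, all above 0.

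The effect of each treatment at 24 h was also tested against its effect at 6 h. With WS1442 it was higher at 24 h in 4 of the 10 genes, Dusp4 (difference 0.61 ± 0.08, adjusted p = 0.0011), Spred2 (0.52 ± 0.08, adjusted p = 0.00255), Etv4 (0.50 ± 0.08, adjusted p = 0.0033) and Etv5 (0.40 ± 0.09, adjusted p = 0.00934), beside 6.1% of all genes higher and 8.02% lower. Upward calls made up 43.2% of all calls and 26.2% with scaling to the 75th percentile, under which the Etv5 difference was 0.21 and not called (adjusted p = 0.169). From 6 h to 24 h the Spred2 mean went from 11.44 to 11.00 with DMSO and from 11.19 to 11.28 with WS1442. Dusp4 went from 11.01 to 10.55 and from 10.95 to 11.10, and Etv5 from 12.53 to 12.17 and from 12.31 to 12.36. In these genes the DMSO level thus moved more than the WS1442 level. Etv4 instead went from 12.02 to 11.98 with DMSO and from 11.79 to 12.25 with WS1442. With MeOH eluate the effect was higher at 24 h in 4 genes, Etv1 (0.85 ± 0.17, adjusted p = 0.00757), Dusp6 (0.59 ± 0.09, adjusted p = 0.000797), Etv5 (0.53 ± 0.09, adjusted p = 0.00123) and Dusp4 (0.43 ± 0.08, adjusted p = 0.00505), beside 4.78% of all genes higher and 4.57% lower. Dusp6, Etv1 and Etv5 were thus nearer to DMSO at 24 h than at 6 h. The Dusp6 mean went from 11.27 to 10.89 with DMSO and from 10.12 to 10.33 with MeOH eluate. Etv5 went from 12.53 to 12.17 and from 11.68 to 11.86, so in both genes the DMSO level moved more. Etv1 instead went from 8.05 to 8.19 with DMSO and from 7.12 to 8.11 with MeOH eluate. For Etv4 and Spry4 the difference with MeOH eluate was not called, at -0.20 ± 0.08 (adjusted p = 0.1765) and 0.08 ± 0.13 (adjusted p = 0.781). The second Dusp4 probe was called in neither difference, with 0.20 for WS1442 (adjusted p = 0.258) and 0.23 for MeOH eluate (adjusted p = 0.243). Without DMSO 24 h replicate 2, Spry1 also passed with WS1442 (0.86, adjusted p = 0.00327) and with MeOH eluate (0.88, adjusted p = 0.00203), and Etv1 with WS1442 (0.62, adjusted p = 0.015).

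In the DMSO samples themselves, 5 of the 10 genes were lower at 24 h than at 6 h, namely Dusp4 (-0.46 ± 0.06), Spred2 (-0.44 ± 0.06), Spry2 (-0.41 ± 0.14), Dusp6 (-0.38 ± 0.07) and Etv5 (-0.36 ± 0.07), with adjusted p between 6.63e-05 and 0.0285. The second Dusp4 probe gave -0.20 and was not called (adjusted p = 0.060). Over all genes, 21.4% were lower and 24.8% higher. Time and slide cannot be told apart in this comparison. It also depended on the scaling, since with the 75th percentile the upward share of all calls rose from 53.7% to 65.6%, Dusp6 (-0.16), Spry2 (-0.16) and Etv5 (-0.10) were no longer called, and Etv4 turned from -0.04 to 0.20. The Spry2 call was lost without DMSO 6 h replicate 1 (-0.31, adjusted p = 0.193) or DMSO 24 h replicate 1 (-0.35, adjusted p = 0.147), and without the latter Spry1 (0.46, adjusted p = 0.0121) and Etv1 (0.40, adjusted p = 0.0229) were called higher.

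Other genes of the pathway were called in both directions. Over all genes, 5.22% were higher and 1.36% lower with WS1442 at 6 h, and 10.3% and 8.45% with MeOH eluate. At 24 h these shares were 14.7% and 11.8% with WS1442, and 11.8% and 8.67% with MeOH eluate. The lists are small, some of their counts lie near these shares, and no list was tested as a set. Of 12 FGF receptor and ligand genes, 3 were higher and 4 lower with MeOH eluate at 6 h, and 1 was higher and 4 lower at 24 h, while WS1442 gave 3 higher and 1 lower at 6 h and 2 lower at 24 h. Fgf10, a ligand of mesoderm and heart progenitors, fell with MeOH eluate by 1.26 at 6 h (adjusted p = 8.96e-07) and by 1.2 at 24 h (adjusted p = 7.84e-07), whereas with WS1442 it gave -0.26 (adjusted p = 0.137) and -0.11 (adjusted p = 0.435). Fgf15 rose at 6 h with both treatments, by 1.04 with WS1442 (adjusted p = 9.65e-05) and by 1.34 with MeOH eluate (adjusted p = 1.08e-06), and at 24 h it gave -0.32 with MeOH eluate, called lower (adjusted p = 0.0405), and -0.13 with WS1442 (adjusted p = 0.383). Fgf3, another ligand, rose at 6 h (0.72 and 0.88) and fell at 24 h, with -1.35 for WS1442 and -1.33 for MeOH eluate, all called. The receptor gene Fgfr4 passed the test at 24 h with MeOH eluate (adjusted p = 0.0279), but it was well above background on only 1 of the 2 DMSO arrays and on 0 of the 3 MeOH eluate arrays, so no fold change is given.

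Of 18 genes of the signalling cascade itself, from adaptors to ERK, limma called 0 with WS1442 at 6 h, although 6 had an unadjusted p under 0.05. With MeOH eluate at 6 h it called 2 higher and 1 lower, at 24 h 5 higher and 3 lower, and with WS1442 at 24 h 2 higher and 4 lower. Of all genes, 10.3% were higher and 8.45% lower with MeOH eluate at 6 h, together near the share called in this list. Among 16 other feedback genes, 5 were higher and 3 lower with MeOH eluate at 6 h and 6 higher and 3 lower at 24 h, while WS1442 gave 2 higher and 1 lower and then 5 higher and 2 lower. Dusp10, a phosphatase of the stress kinases, rose in all 4 comparisons with DMSO, by 0.67 and 1.02 at 6 h and by 0.55 and 0.46 at 24 h with WS1442 and MeOH eluate. Dusp2 fell with MeOH eluate by 0.42 at 6 h (adjusted p = 0.0254) and by 1.34 at 24 h (adjusted p = 2.15e-06). With WS1442 it gave -0.13 at 6 h (adjusted p = 0.612) and -0.44 at 24 h (adjusted p = 0.0142). Lrig3 fell with MeOH eluate by 1.41 at 6 h (adjusted p = 0.000547), where these samples spread widely (SD 0.60, against 0.13 with DMSO). With WS1442 it gave -0.65 at 6 h (adjusted p = 0.104). At 24 h it was not called, with -0.14 for WS1442 (adjusted p = 0.699) and -0.36 for MeOH eluate (adjusted p = 0.31).

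Of 15 other ETS factor genes, 2 were higher and 2 lower with MeOH eluate at 6 h and 1 higher and 3 lower at 24 h, and WS1442 gave 1 higher at 6 h and 1 higher and 3 lower at 24 h. Of all genes, 14.7% were higher and 11.8% lower with WS1442 at 24 h, together near the share called in this list. Etv2, which directs blood and endothelial fates, fell at 24 h with both treatments, giving -1.04 with WS1442 (adjusted p = 1.25e-05) and -2.52 with MeOH eluate (adjusted p = 4.02e-09). At 6 h it gave 0.01 with WS1442 (adjusted p = 0.964) and -0.30 with MeOH eluate (adjusted p = 0.0494). Among 15 genes known to be induced by ERK, 4 were higher and 2 lower with MeOH eluate at 6 h, 6 higher and 2 lower at 24 h, and WS1442 gave 3 higher and 1 lower and then 6 higher and 1 lower. Egr2 rose with WS1442 at 6 h by 1.02 (adjusted p = 0.00144) and with MeOH eluate by 0.53 (adjusted p = 0.0197). Its values at 24 h were 0.43 with WS1442 (adjusted p = 0.0373) and 0.39 with MeOH eluate (adjusted p = 0.0748). Myc fell at 24 h, with -0.57 for WS1442 (adjusted p = 9.62e-05) and -1.01 for MeOH eluate (adjusted p = 3.73e-07). Its values at 6 h were -0.14 for WS1442 (adjusted p = 0.345) and -0.40 for MeOH eluate (adjusted p = 0.0018).

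**Figure D4:**
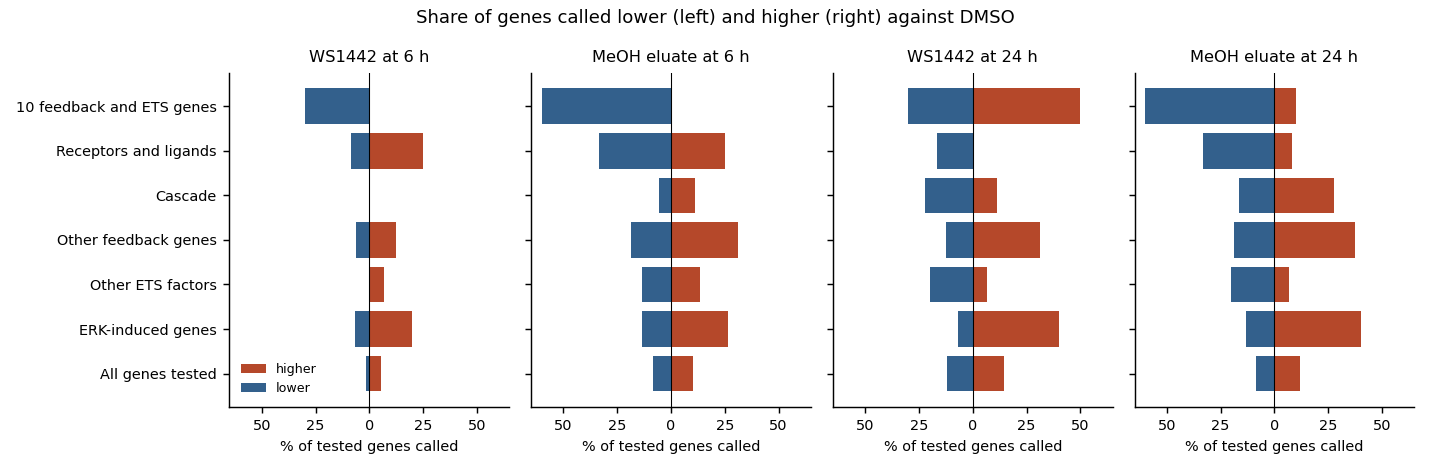
Percentage of tested genes called lower (blue, to the left) and higher (red, to the right) against DMSO at an adjusted p under 0.05, for the 10 genes, 5 lists of other pathway genes and all 20921 genes, with one panel for each treatment and time. With MeOH eluate at 6 h, 6 of the 10 genes were lower, against 8.45% of all genes.

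Cell type markers were also called higher or lower. Over all genes, 5.22% were higher and 1.36% lower with WS1442 at 6 h, and 10.3% and 8.45% with MeOH eluate. At 24 h these shares were 14.7% and 11.8% with WS1442, and 11.8% and 8.67% with MeOH eluate. Sums of a list were taken over linear signals before the log2, so its brightest marker weighs most. Of 6 early mesoderm markers, 2 were lower with WS1442 and 3 lower and 1 higher with MeOH eluate at 6 h, and 2 and 3 were lower at 24 h. Their summed signal on the log2 scale lay between 11.66 and 11.67 in the DMSO samples of 6 h, between 11.05 and 11.17 with WS1442 and between 10.40 and 10.65 with MeOH eluate, and at 24 h between 11.30 and 11.31, 10.93 and 11.03, and 10.71 and 10.83. The summed signal of 5 endoderm markers ran in the same order at 6 h, from 11.02 to 11.05, from 10.62 to 10.75 and from 10.22 to 10.43. At 24 h the endoderm sums ran in the order DMSO, WS1442 and MeOH eluate, with 11.35 to 11.45, 11.18 to 11.36 and 10.51 to 10.79, the first 2 ranges overlapping. Of the 5 endoderm markers, 1 and 3 were lower at 6 h with WS1442 and MeOH eluate, and 1 was higher and 2 lower, and 3 were lower, at 24 h. Pou5f1, with a mean of 13.71 in DMSO at 6 h, was by far the brightest of the 6 markers of pluripotent cells. Their summed signal overlapped between all groups of a time point (13.76 to 13.87 at 6 h and 13.03 to 13.26 at 24 h). Of these 6, limma called Nanog lower with MeOH eluate at 6 h (group means 6.29 with DMSO and 5.34 with MeOH eluate) and Sox2 lower with WS1442 at 24 h (7.86 and 7.29), while it called 0 with WS1442 at 6 h and 0 with MeOH eluate at 24 h (0 and 1 at an unadjusted p under 0.05).

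Of 5 neuroectoderm markers, 3 were higher with WS1442 at 24 h and 2 higher and 1 lower with MeOH eluate, with a summed signal of 11.67 to 11.72 in DMSO, 12.21 to 12.37 with WS1442 and 11.95 to 12.16 with MeOH eluate. Nes, with means of 11.28, 12.06 and 11.86 in these groups, was by far the brightest of the 5. At 6 h, 1 was lower with WS1442, and 1 was higher and 2 lower with MeOH eluate. Cardiac markers, of which 10 of 11 could be tested, gave 1 higher with WS1442 and 3 higher with MeOH eluate at 6 h, and 1 higher and 4 lower, and 5 lower, at 24 h. Their summed signal at 6 h lay between 14.42 and 14.56 with DMSO, above both treatments. It lay between 14.16 and 14.36 with WS1442 and between 14.19 and 14.33 with MeOH eluate. At 24 h it ran from 13.94 to 13.95, from 13.76 to 14.02 and from 13.74 to 13.90 in the same order, with WS1442 overlapping DMSO. Actc1 was by far the brightest of these cardiac markers, with DMSO means of 14.41 at 6 h and 13.72 at 24 h. No probe of Myh6, the gene behind the reporter, was well above background on every array of any group. Of 4 smooth muscle markers, limma called 0 with WS1442 at 6 h (3 at an unadjusted p under 0.05), 2 higher with MeOH eluate at 6 h, and 1 higher and 1 lower with each treatment at 24 h. Of 6 endothelial markers it called 0 with WS1442 at either time (1 and 0 at an unadjusted p under 0.05) and 1 higher at 6 h and 1 lower at 24 h with MeOH eluate. The part of changing cell types in the results for the 10 genes was not tested.

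The genes whose pattern was most like that of Dusp6 over the 16 arrays, after the mean of each time point was subtracted, were Mixl1 (Pearson r = 0.986), Lzts1 (0.979), Tdgf1 (0.979), Ccnd1 (0.967) and Evx1 (0.967), out of 20898 genes. Mixl1 had group means of 10.92, 9.93 and 8.53 with DMSO, WS1442 and MeOH eluate at 6 h, and of 10.15, 9.69 and 8.96 at 24 h. For Etv4 the most similar were Ruvbl2 (0.973), Cdr2l (0.960), Gemin5 (0.953), Ndufv1 (0.936) and Sart1 (0.930). The arrays share 6 groups, so these values describe group means more than single samples, and no test was made of them.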

How the data were processed

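RNA of 16 mESC samples was labelled with Cy3 and hybridised to 1-colour Agilent arrays. The authors deposited, for each array, the intensity of every spot, background corrected and detrended by Agilent Feature Extraction 11.5.1.1 per the file headers (probe coordinates on mm9), together with 0 or 1 flags for spots well above background, non-uniform or saturated, and a table of linear intensities that they had quantile normalized. In it, every column correlated best with its own array, and it was used as an alternative. Array methods of the study name quantile normalization and a p under 0.05, but no test. Its general methods name Student's t-test for pairwise comparisons.

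Of 60273 gene probes on 61473 spots, 300 had 5 spots, which were averaged, and non-uniform spots were set missing. Log2 intensities were quantile normalized with limma 3.58.1 in R 4.3.3. A probe had to be well above background throughout 1 group or more, which 36729 were. Of these, 11 had no value in some group and were dropped, and 95 values were missing among the kept probes. Means of the 6 groups were fitted to all 16 arrays (lmFit, eBayes with trend), with Benjamini-Hochberg adjustment over all probes fitted. A gene was read at its brightest kept probe. Tables and figures were made in Python 3.11.15. The fit was tested on simulated data.

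Symbols came from the array files or, through RefSeq accessions and older symbols, from a RefSeq gene table, which gave 43072 probes a symbol and left 17201 without one. The 10 genes, the pathway and marker lists and the motifs were chosen with earlier results of these data known. Named are the 10 genes, pathway genes called and changed over 2-fold in at least 1 comparison with DMSO, and the 5 genes most like Dusp6 and the 5 most like Etv4. Mixl1 values and the markers named were added after values were seen. Array number limits the precision. Further assays in the paper were not used here.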

Additional observations from a re-analysis of the deposited data

Results flagged for a closer look

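For 8 results the effect of a treatment differed between 24 h and 6 h by limma's test of the difference itself, with Benjamini-Hochberg adjustment over all tested probes. For WS1442 the log2 fold change against DMSO was higher at 24 h than at 6 h by 0.61 for Dusp4, by 0.52 for Spred2, by 0.50 for Etv4 and by 0.40 for Etv5. For MeOH eluate it was higher at 24 h by 0.85 for Etv1, by 0.59 for Dusp6, by 0.53 for Etv5 and by 0.43 for Dusp4. The Dusp4 values are those of its brightest probe. Its second probe was called in neither difference (0.20 with WS1442, adjusted p = 0.258, and 0.23 with MeOH eluate, adjusted p = 0.243). Each time point has its own DMSO samples, and both treatments were set against the same ones. A difference can thus come from a change in the DMSO level as well as in the treated level.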

How the results depend on the processing

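Of 49 called gene results out of 90, 33 were called under every alternative except a t-test. This was Student's test, as in the study's general methods, with a Benjamini-Hochberg adjustment that they do not name. That test called 0 of the 10 genes in the 4 comparisons with DMSO, 0 for MeOH eluate against WS1442 at 6 h, 1 at 24 h and 0 for DMSO at 24 h against 6 h, where between 5 and 8 genes per comparison had an unadjusted p under 0.05. For WS1442 at 6 h, the count of 3 fell to 1 with scaling to the 75th percentile, without an intensity trend in the prior, with a replicate block and with a fit within the time point, and it ranged from 0 to 4 with single samples left out. It was 0 without DMSO 6 h replicate 1 (5 at an unadjusted p under 0.05) and 1 without DMSO 6 h replicate 2 or WS1442 6 h replicate 3. For WS1442 at 24 h the count of 8 ranged from 5 to 8, with 5 without DMSO 24 h replicate 1. One result reversed, Etv4 in DMSO at 24 h against 6 h, at 0.20 with the 75th percentile, and the cause was not tested. Over all 2560 comparisons of a gene result with an alternative, called or not, an uncalled value changed sign in 24. No scaling moved the median of all genes by over 0.1, but single members moved further. Dusp6 in DMSO at 24 h against 6 h, for example, went from -0.38 to -0.16 with the 75th percentile. Same-numbered samples deviated together in 1 of 14 pairs (correlation over 0.1) against 6 of 28 pairs of unlike number. The highest correlation, 0.28, was that of WS1442 6 h replicate 1 with MeOH eluate 6 h replicate 1. With 2 or 3 samples per group the deviations from the group mean are tied to each other, and those of the 2 DMSO samples mirror each other exactly. The counts therefore cannot decide whether samples of one number were paired. With the replicate block 6 results were no longer called. For WS1442 against DMSO these were Spred2 (-0.23) and Etv4 (-0.23) at 6 h, and Dusp6 (-0.22, adjusted p = 0.0636) and Etv5 (0.20, adjusted p = 0.0590) at 24 h. The others were Spred2 (-0.18) for MeOH eluate against WS1442 at 24 h and Spry2 (-0.18) in DMSO at 24 h against 6 h. In that fit the DMSO level stood for replicate 1 at 24 h but for replicate 3, which DMSO lacks, at 6 h. The Spry2 value thus depends on how the block was coded and cannot show whether blocking ended that call. With 2 DMSO samples per time point, small changes of dim genes could be missed.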
